A study of Zea mays with 24 samples.

Results

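Primary roots of the maize variety Picker were compared between a cold and a control temperature regime on 3 arrays, each of which carried cold and control RNA of Picker itself. These 3 arrays, 1 for each biological replicate, were chosen by their titles out of the 24 arrays of the series. The other 21 arrays hold the same comparison for the varieties PR39B29, Fergus and Codisco (3 direct arrays each) and 12 linking arrays, on which cold RNA of one variety met control RNA of another. Seedlings were raised in the dark in growth chambers. By the study's methods the control regime was 16 h at 18 °C and 8 h at 12 °C, and the cold regime 16 h at 12 °C and 8 h at 6 °C. The sample labels give 6 h in place of 8 h for the cooler control period, and they place sampling 8 days after germination where the methods give day 1. The varieties came from commercial breeders, and the study ranked Picker with PR39B29 as more chilling tolerant than Fergus and Codisco. The methods describe the replicates as independent biological samples. How many roots made up a sample is not given in the sources used here.

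Maize comes from warm climates, and its roots take up water and minerals poorly and elongate slowly when the soil is cool at emergence. Cold reaches a root through stiffer membranes, slower enzymes and a shortage of water, so transcripts for water stress proteins, membrane channels, cell wall enzymes and defence proteins are often followed in chilled roots. Roots in the dark hold no green chloroplasts but non-green plastids, which still carry a small genome of their own. That genome encodes part of the plastid ribosome and of the photosystems.

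The arrays gave a ratio of the 2 RNAs for each probe and no level of either. Every value below is the log2 ratio of cold over control RNA, so that 1 stands for a doubling in the cold and −1 for a halving. Its direction is likely but not settled. The titles of the direct arrays name the control RNA first, and the deposited ratio was taken as first-named over second-named RNA and its sign changed, which is also the orientation in which the study presents its ratios for Picker. The dye labels, with the header of the deposited table, would read the same numbers as cold over control without the change. By these labels cold RNA carried one dye on all 24 arrays, so that the direct and the linking arrays would run the same way. As deposited, however, the Picker arrays were negatively correlated across genes with all 6 linking arrays of their own replicate that carried Picker RNA (Spearman's rho −0.684 to −0.147, median −0.367), and with 11 of all 12 linking arrays of their replicates. One of the 6, Picker cold against PR39B29 control of replicate 2 (rho −0.172), was nearly identical to the direct array of PR39B29 replicate 2 (rho −0.171 with Picker), whose title names the control first. The correlations bear on whether the 2 kinds of array run opposite ways, as their titles do, and cannot fix the sign itself. With every ratio turned, every sign of a Picker value given here turns and no count of called genes changes in total. On the 3 Picker arrays alone, where cold RNA carried the same dye by the labels, dye and cold cannot be told apart. A loop fit of the 24 arrays, read by their titles, was also run with a constant for the first-named RNA, called the dye term here. It could be estimated for 10 of the 13 genes called below, not for the other 3, and moved their cold effect by at most 0.39. This constant measures the dye only if title order is dye order. If cold RNA carried one dye throughout, as labelled, it does not, so the shift cannot separate dye from cold.

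Probe sequences were not used here. The primer pairs that the study designed for quantitative PCR are shown for 5 of the transcripts described below, of which 2 were higher and 3 lower in the cold on all 3 Picker arrays, because they are the sequences by which these transcripts can be measured again (5′ to 3′, no part in capitals).
MZ00022876 forward: ggaaggtgtgttctgcgttt
MZ00022876 reverse: tatgaagctgactggcgttg
MZ00041708 forward: ttgctgctcttcaccttcct
MZ00041708 reverse: acaacaatggcttccctgaa
MZ00004486 forward: gagcaacgtgattggacaga
MZ00004486 reverse: gcatatgcggggagaacata
MZ00037140 forward: aagtaaggccacgcgtttta
MZ00037140 reverse: cctggactacgagacggtgt
MZ00026029 forward: gctacatcaacagccccaac
MZ00026029 reverse: tacacgacaacacgacacga
The first 2 belong to proteins of unknown function, the third to the pathogenesis related protein PR-1, the fourth to a protein annotated both as induced by glucose starvation and as related to defence, and the fifth to a probable lipid transfer protein.

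The 3 arrays were unlike each other. Replicates 1, 2 and 3 held a value for 29487, 26830 and 18940 of 43393 genes, and 17854 genes had a value on all 3. The standard deviation of the log2 ratios was 2.60, 1.52 and 0.83, and 1132, 103 and 15 genes lay beyond 5 in either direction. Of the blank spots, which carry no probe, 11.4% had a value on replicate 1, 2.13% on replicate 2 and 0.659% on replicate 3. Replicate 1 thus kept the most spots and had the widest ratios. Across genes, which are not independent replicates, Pearson's r was 0.701 between replicates 2 and 3 and Spearman's rho 0.697. Replicate 1 had r = 0.160 and rho = 0.266 with replicate 2 and r = 0.172 and rho = 0.195 with replicate 3. The values do not show how bright a spot was over its background, and 3 arrays set the precision of every mean given here.

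**Figure D1:**
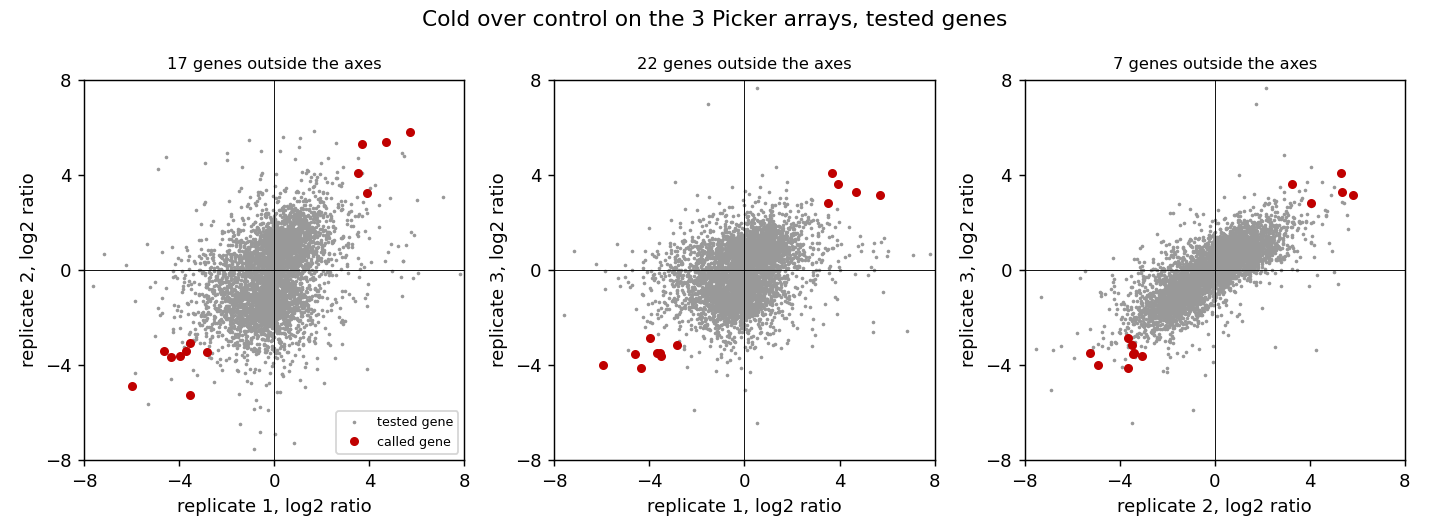
Each point is 1 of the 4377 tested genes, with its log2 ratio of cold over control on one Picker array against that on another, and the 13 called genes in red; 17, 22 and 7 genes lie outside the axes of the 3 panels, from left to right. Replicates 2 and 3 run along a line (84.9% of the genes had the same sign), and replicate 1 much less so with either (65.4% and 64.7%). The called genes, chosen on these same arrays, sit in the outer corners of all 3 panels.

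The test was limma's moderated test of the mean of the 3 arrays against 0. It was run on genes that had a value on all 3 Picker arrays and were among the 40% most variable over the 24 arrays, which left 4377 genes. Of these, 13 passed an adjusted p of 0.05, which is 0.297% of the genes tested. In the cold 5 genes rose (0.114%) and 8 fell (0.183%), and read by the dye labels these would be 8 and 5. At an unadjusted p under 0.05 there were 1454 genes (33.2%), 616 higher (14.1%) and 838 lower (19.1%). The 3 arrays gave one sign to 2517 of the 4377 genes (57.5%), 1192 of them higher and 1325 lower, while the median gene tested was at −0.20. In whole roots fewer cells of a type and less RNA per cell cannot be told apart.

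The 13 called genes differed from 0 by about the same amount on each array. Their median distance from 0 was 3.92, 3.67 and 3.50 on replicates 1, 2 and 3, and their SD over the 3 arrays ran from 0.15 to 1.51. The tested genes as a whole had medians of 0.79, 1.26 and 0.93, and SDs from 0.01 to 14.6. The test favours genes with large and similar values on these arrays, so the agreement among the 13 follows from the call. The deposited tables and the reference used here give a name for one of the 13, the plastid gene rpl14, and no product for the other 12, so these are given by probe ID and, in brackets at first mention, by the name of the sequence the probe stands for.

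Among the genes that rose, MZ00032354 (TC266166) had log2 ratios of 5.70, 5.80 and 3.14 on replicates 1, 2 and 3. MZ00036714 (BG841826) had 4.69, 5.37 and 3.29. MZ00031891 (TC268596) had 3.70, 5.32 and 4.08. In these 3 genes replicate 2 gave the highest value, and every array lay above 3. The remaining rises were MZ00014371 (TC259440), with 3.92, 3.25 and 3.62, and MZ00005943 (BQ539527), with 3.50, 4.07 and 2.83. The largest mean, that of MZ00032354, was 4.88 ± 1.51 (SD, n = 3, adjusted p = 0.0428 from limma), a 29.4-fold rise, and the smallest, that of MZ00005943, was 3.47 ± 0.62 (SD, n = 3, adjusted p = 0.0452 from limma). The steadiest of the 5 was MZ00014371, at 3.60 ± 0.33 (SD, n = 3, adjusted p = 0.0422 from limma).

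Among the genes that fell, MZ00019953 (TC265052) had −5.97, −4.90 and −3.99 on replicates 1, 2 and 3. MZ00044438 (TC213149) had −3.56, −5.26 and −3.50. MZ00044470 (TC213579) had −4.35, −3.67 and −4.13. These 3 were the genes with the lowest means, and in none of them did an array come closer to 0 than −3.50. MZ00005403 (BM500461) had −4.62, −3.42 and −3.52. MZ00021309 (TC255852) had −3.70, −3.41 and −3.48, an SD of 0.15 that was the smallest among the 13. MZ00031200 (TC257418) had −3.96, −3.64 and −2.86, and MZ00005196 (TC277857) had −3.53, −3.08 and −3.64. The smallest fall among the 8 was that of rpl14 (MZ00034858), which encodes a protein of the large subunit of the plastid ribosome, with −2.85, −3.46 and −3.15. The means ran from −4.96 ± 0.99 in MZ00019953 (SD, n = 3, adjusted p = 0.0422 from limma), a 31.0-fold fall, to −3.15 ± 0.31 in rpl14 (SD, n = 3, adjusted p = 0.049 from limma).

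**Figure D2:**
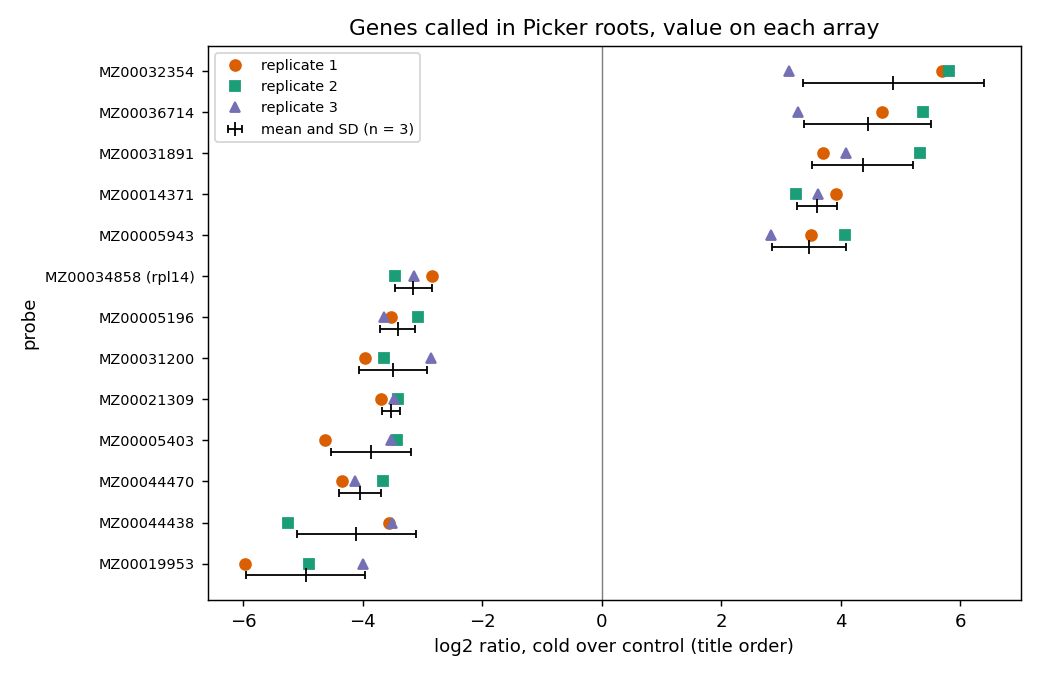
Log2 ratio of cold over control for the 13 genes called in Picker (rows), with a symbol for each of the 3 arrays and, below the symbols, the mean with its SD (n = 3). The 5 genes that rose lie between 2.83 and 5.80 on every array and the 8 that fell between −5.97 and −2.85, so that no array crosses 0. The genes were called on these same arrays.

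The threshold fell within a run of close values. The smallest adjusted p of the test was 0.0422, and the first genes past 0.05 were phosphoenolpyruvate carboxykinase (MZ00013532) at a mean of 3.15 and MZ00041213 at −3.14, both with an adjusted p of 0.0523 from limma. MZ00052341 at 3.04, the water stress inducible product MZ00041500 at 2.90 and the ribosomal protein gene rpl16 at −3.45 followed with 0.0538 each from limma. The call also rested on single arrays. Without replicate 1 the count was 1514 of 5575 genes (27.2%), 534 higher (9.58%) and 980 lower (17.6%), and it included all 13. Without replicate 2 and without replicate 3 it was 0. Such fits rest on 2 arrays, which give a weak estimate of each gene's spread. In a fit without the variance filter limma called no gene. There the unadjusted p was under 0.05 for 3923 of 17854 genes, the lowest adjusted p was 0.0548, and the 13 had adjusted p-values up to 0.074.

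The largest means were mostly not the called ones. Of the 20 tested genes with the largest mean in either direction 4 were called, and in 12 the SD was larger than the mean. In 11 of the 20 the most extreme value came from replicate 1, and in 16 of the 20 the other arrays both stayed within 5 of 0. A BRAP2-like protein (MZ00049724) had the largest mean of all, from −25.78 on replicate 1 beside −0.35 and −0.65 on replicates 2 and 3. The probe MZ00038550 was at 19.81 on replicate 1 and at −0.11 and 0.07 on the other arrays. On replicate 3 the most extreme value among these 20 was that of PR-1 (MZ00004486), at −14.30, with −0.85 and −5.87 on replicates 1 and 2. The means of MZ00049724 and MZ00038550 thus describe 1 array.

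The direct arrays of the other varieties, which share no RNA with those of Picker, held values for all 13 called genes. In Fergus and in Codisco the mean of each of the 13 had the same direction as in Picker, and in PR39B29 that of 11. A value on all 3 arrays was rarer. In Fergus 5 of the 13 had one, and all 5 had the direction of Picker on each array. In Codisco 8 had one, of which 7 did, and in PR39B29 6 had one, of which 5 did. The share of all genes with a shared direction was not counted, so these counts cannot be read as a trait of the 13. Across all genes the Picker replicates 1, 2 and 3 had Spearman's rho of 0.289, 0.597 and 0.524 with the Fergus array of the same number. With Codisco rho was 0.217, 0.533 and 0.611, and with PR39B29 0.190, −0.171 and 0.557. The same limma test, run on each variety's own arrays, called 191 of 4706 genes in Fergus (4.06%), among them MZ00032354 and MZ00036714. It called 0 of 3695 genes in PR39B29 (0%) and 0 of 4610 in Codisco (0%), with 1018 and 573 below 0.05 before adjustment, so that none of the 13 could be among its calls there. MZ00036714 was at 3.52, 5.13 and 4.10 in Fergus and at 2.57, 5.84 and 4.09 in Codisco, a range that overlaps that of Picker, while PR39B29 had 2.01 and 3.29 on replicates 1 and 2 and no value on replicate 3.

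Of the genes with 3 values in PR39B29, 1 had its mean on the opposite side there. MZ00021309, at −3.70, −3.41 and −3.48 in Picker, was at 3.25, 1.97 and −0.36 in PR39B29. The ranges did not overlap, but the difference of −5.15 (standard error 1.13) had an adjusted p of 0.405 from limma over all genes. In Codisco the gene had 1.65 and −2.10 on replicates 1 and 3, and in Fergus −1.24 on replicate 2. MZ00031891, the other gene whose mean turned, had a single value in PR39B29, −1.96 on replicate 3. For rpl14, the one called gene with values on all 12 direct arrays, the difference was −2.003 from PR39B29, −1.32 from Fergus and −0.05 from Codisco (adjusted p = 0.46, 0.997 and 0.999 from limma).

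**Figure D3:**
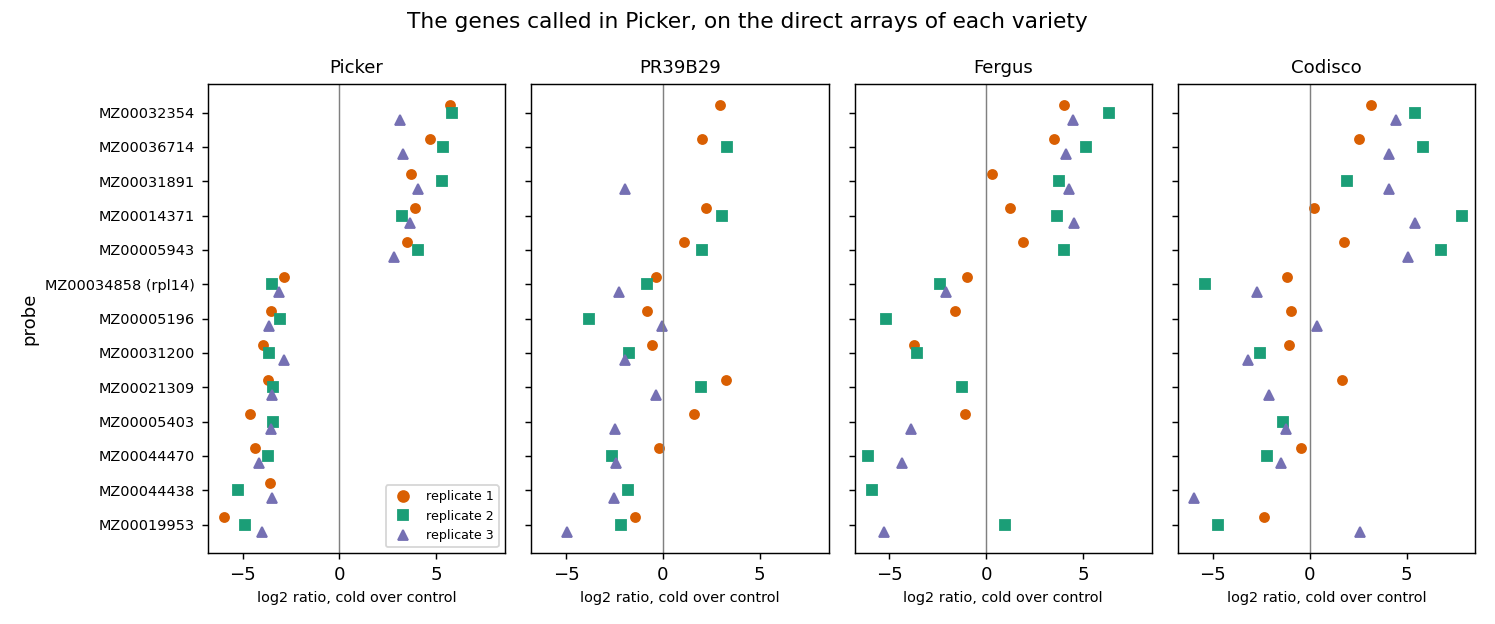
Log2 ratio of cold over control for the genes called in Picker (rows) on the direct arrays of Picker, PR39B29, Fergus and Codisco (panels), with a symbol for each replicate; a missing symbol is a missing value. In Picker, on whose arrays the genes were called, no gene crosses 0. In PR39B29 the values of MZ00021309 and MZ00005403 lie on both sides, and the only value of MZ00031891 is −1.96. In Fergus and Codisco the 5 upper genes are above 0 on every array that measured them. Of the lower genes, MZ00019953 lies on both sides in Fergus and in Codisco, and MZ00021309 and MZ00005196 do so in Codisco.

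The linking arrays of Fergus cold over Picker control carry the control RNA of Picker, and any difference between Fergus and Picker enters their ratios too. Picker control RNA is the denominator on the direct arrays as well, on which the 13 were chosen. A shared direction is therefore no independent evidence. The 5 genes that rose in Picker were above 0 there on all 3 replicates, with MZ00032354 at 4.84, 6.04 and 6.31 and MZ00014371 at 0.54, 3.58 and 4.42. The 8 that fell were below 0 wherever they had a value, with rpl14 at −0.64, −0.73 and −4.01. The values of the 13 were mixed where Picker cold RNA was set against PR39B29 control RNA, in part through replicate 2. MZ00014371 was at 2.67 on replicate 1 and −3.20 on replicate 2, and MZ00019953 at −2.86, 2.28 and −3.93. Signs differed without replicate 2 as well, with MZ00032354 at 2.62 and −1.85 on replicates 1 and 3. Replicate 2 of these linking arrays gave nearly the numbers of the direct array of PR39B29 replicate 2 (Pearson r = 0.987 across 22672 genes, as deposited), and rpl14 was at −0.72, 0.87 and −3.48 on replicates 1, 2 and 3. Which of these 2 arrays was deposited under a wrong label, if either, was not tested. Across genes the direct arrays of PR39B29 had Spearman's rho 0.817 between replicates 1 and 2 and 0.334 between replicates 2 and 3.

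No gene had a cold response in Picker that differed from another variety at an adjusted p under 0.05 in limma. All varieties entered this fit, each with its own mean over its direct arrays. Against PR39B29 the count was 0 of 3165 genes (0%), with 349 below 0.05 before adjustment (11%), 89 of them higher and 260 lower in Picker. Against Fergus it was 0 of 3474 (0%), with 65 at the unadjusted threshold (1.87%). Against Codisco it was 0 of 3572 (0%), with 175 (4.9%). Against the mean of the other 3 varieties it was 0 of 2546 (0%), with 97 (3.81%), 17 higher and 80 lower in Picker. With PR39B29 replicate 2 left out, since its array is nearly that of a linking array, 0 of 3373 genes passed against PR39B29, and 177 did so at the unadjusted threshold.

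The genes with the smallest unadjusted p in these contrasts were looked up after their values had been seen. MZ00017084 (TC250230) was at 3.53, 4.69 and 2.33 in Picker and at −1.74, −1.35 and −1.93 in Codisco. The ranges were far apart, with a difference of 5.19 (standard error 0.74), and the adjusted p was 0.0807 from limma. PR39B29 had 1.72 and 2.80 for this gene and Fergus 3.06 and 2.76, on 2 arrays each, so that on the direct arrays Codisco alone was below 0.

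Against PR39B29 the 3 genes with the smallest p were below 0 in Picker and above 0 in PR39B29 on all 3 arrays, and the next, MZ00021309, described above, was above 0 in PR39B29 on 2. MZ00013312 (TC275915) was at −3.12, −2.32 and −0.95 in Picker and, in PR39B29, at 1.97, 1.54 and 2.93 (−4.27 apart, standard error 0.74, adjusted p = 0.249 from limma). MZ00036320 (BF728064) was at −3.03, −1.80 and −1.29 in Picker and, in PR39B29, at 1.62, 2.09 and 4.73 (−4.85 apart, standard error 0.89, adjusted p = 0.249 from limma). Of the other varieties, Fergus had −1.24 and −0.50 for MZ00013312, on the side of Picker, and its values for MZ00036320 lay on both sides of 0. MZ00042523 (TC265860) had the smallest p against Fergus and against the mean of the others. It was at −2.23, −1.03 and −1.01 in Picker, and 8 of the 9 other direct arrays were above 0, with 2.00, 0.54 and 1.42 in Fergus (difference −2.74, standard error 0.75, adjusted p = 0.997 from limma). The files pair none of these 4 probes with a product.

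Among the probes of the plastid ribosome 1, rpl14, was called, on the lower side. Of 23 probes named for plastid ribosomal proteins, 10 had a value on all 3 Picker arrays, of which 9 were below 0 on each array and 1, rps15, above 0. Over all 17854 genes with 3 values 22.5% were below 0 on each array and 24% above. Of the 7 of these probes that were tested, all 7 had an unadjusted p under 0.05 on the lower side, against 19.1% of all tested genes. The probes were not tested as a group. The study had selected rpl16 and the rpl2 probe MZ00040527 for Picker from these arrays, and rpl14 was called on them. The direction of these probes is no independent evidence. rps15, for a small subunit protein, was at 0.45, 1.06 and 1.16.

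Of the 10 probes with 3 values, 8 belong to one stretch of the plastid genome. The genes of the stretch that were followed are, in the order of the reference table, rpoA, rpl36, infA, rpl14, rpl16, rps3, rpl22, rps19, rpl2 and rpl23, with the subunit of the plastid RNA polymerase (rpoA) at one end and proteins of both ribosomal subunits after it. There were 11 probes for 9 of these genes, of which 8 had values on all 3 Picker arrays. All 8 were below 0 on each array, with means from −3.45 to −1.08. All of the 11 that had a value were below 0 on each array, 9 on replicate 1, 10 on replicate 2 and 9 on replicate 3, with medians of −1.89, −2.64 and −2.24. Among all genes 49.7%, 49.5% and 48.6% were below 0 on the same arrays. The stretch was singled out after its values had been seen and was not tested as a group. It includes rpl14, called on these arrays, and the rpl16 and rpl2 probes that the study had selected from them.

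Within the stretch the arrays differed in which genes were lowest. rpl16 was at −2.41, −3.88 and −4.07 on replicates 1, 2 and 3 (adjusted p = 0.0538 from limma). rpl22 was at −2.78, −1.76 and −0.65. In rpl16 replicate 1 was the closest to 0, while in rpl22, rpl36 (−1.996, −1.58 and −0.33) and rps3 (−1.89, −0.91 and −0.43) replicate 3 was. rps19, for a small subunit protein, was at −1.28, −3.25 and −2.24. The probes of rpl2, MZ00034860 and MZ00040527, were at −0.999, −1.96 and −3.53 and at −1.89, −3.69 and −2.40. Both carry the name of one gene and may not be independent. The genes rpl16, rps3, rps19, rpl2 and rpl23 also have a copy in the mitochondrial genome. The study's annotation gives the rpl16 probe as the chloroplast protein, and for the other probes of these genes the sources used here do not name the genome.

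**Figure D4:**
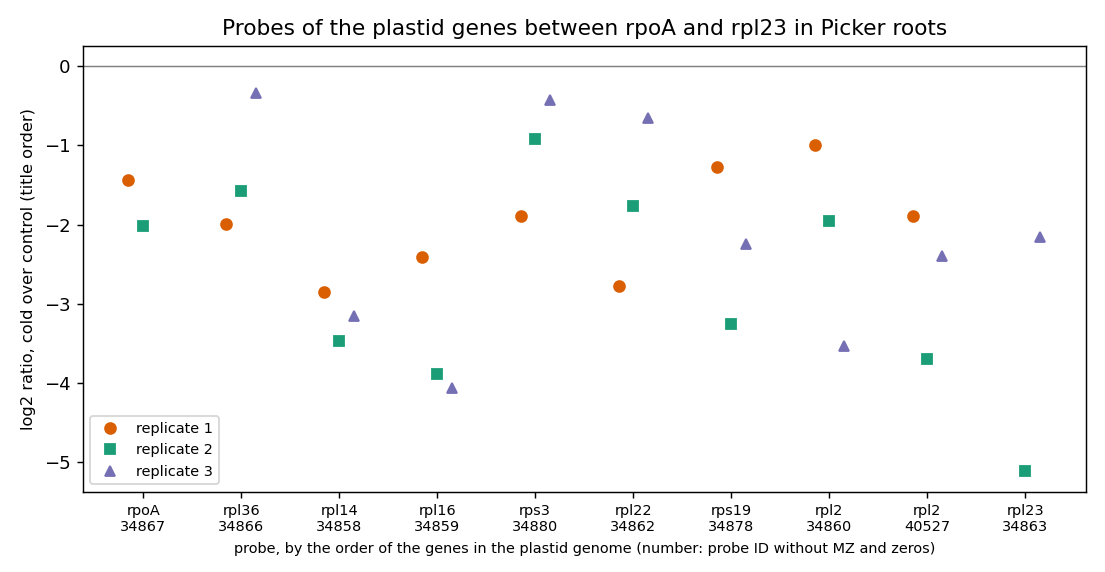
Log2 ratio of cold over control on each Picker array (symbols) for the 10 of the 11 probes that had a value, ordered as the genes lie in the plastid genome. All values lie below 0, from −5.11 for rpl23 on replicate 2 to −0.33 for rpl36 on replicate 3. The stretch was singled out after its values had been seen. On these arrays rpl14 was called, and the study had selected rpl16 and the rpl2 probe MZ00040527.

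The other plastid genes did not share one direction. Of 53 further plastid probes 10 had values on all 3 Picker arrays, of which 4 were below 0 and 4 above 0 on each array. psbM, for a small subunit of photosystem II, was at −3.40, −1.83 and −0.68. psaB, for a core protein of photosystem I, was at 0.67, 0.36 and 0.96, and psbA, for the D1 protein of photosystem II, at 1.42, −2.92 and −1.76. The large subunit gene of Rubisco, rbcL (MZ00040486), had 11.79 on replicate 1 and 0.40 and 1.06 on the others. A ribulose bisphosphate carboxylase product listed under another probe (MZ00005992) was at −3.65, −3.03 and −0.51 (adjusted p = 0.0915 from limma). Photosystem genes mark green tissue. Of 24 such probes 5 had 3 values, with 2 above and 1 below 0 on each array, and ratios do not give their level.

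On the other varieties' direct arrays the median of the 11 probes of the stretch lay below 0 as well, on most of them closer to 0 than on the Picker array of the same replicate number. In PR39B29 the medians on replicates 1, 2 and 3 were −0.53, −0.71 and −2.17, from 6, 7 and 8 probes with a value. In Fergus they were −0.96, −2.24 and −1.90, and in Codisco −0.73, −1.51 and −2.30. In PR39B29 6 of 6, 6 of 7 and 8 of 8 measured probes were below 0, and the exception, a probe of rpl2 at 0.05, came from replicate 2, the array that nearly equals a linking array. In Fergus 8 of 8, 8 of 8 and 8 of 10 were below 0, and in Codisco 5 of 7, 8 of 10 and 10 of 11. The exception on Codisco replicate 3 was rpl36, at 5.18. The medians were taken over the probes with a value, which differ between arrays, so they do not compare the same probes. The difference of the stretch between the varieties was not tested.

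A list of 52 probes was grouped by role. The study's annotation has an entry for 47 of them, proteins of unknown function included, it gives no product for 4, and 1, rpl14, was listed by its name in the files. Of the list, 29 probes had been selected for Picker by the study from the arrays used here, which makes their direction no independent evidence. All the others but rpl14 had been selected by the study for PR39B29 from the same series. The list was thus drawn from cold responses in this series and not by role. Of the 52, 48 were tested and 1, rpl14, was called (0.297% over all tested genes). At an unadjusted p under 0.05 there were 14 higher and 22 lower, 36 of 48, against 33.2% of all tested genes. Of the 29, 28 were tested and 0 called, with 4 higher and 18 lower at the unadjusted threshold and a median of −1.95. Without replicate 1, 32 of 47 listed probes passed, 17 higher and 15 lower, in a fit in which 27.2% of all genes did.

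Of the root tissue products 1 was higher and 2 were lower on every array. All had been selected for Picker by the study from these arrays. RCc3 (MZ00015009), a root-specific protein known from rice, was at 2.64, 4.13 and 2.02 (mean 2.93 ± 1.08, SD, n = 3, adjusted p = 0.0686 from limma). Root cap protein 2 (MZ00032161), named for the cap of cells that covers the root tip, was at −0.59, −6.82 and −3.36 (adjusted p = 0.0934 from limma). The lipid transfer protein (MZ00026029), of a family that carries lipids to the cell surface, was at −3.04, −2.30 and −0.60 (adjusted p = 0.0931 from limma). For the root cap product replicate 2 was lowest by far and for the lipid transfer protein replicate 1. Levels of these markers cannot be read from ratios, so the labelled tissue was checked for change only.

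All 4 defence probes, which stand for 3 products, were below 0 on every array, and none was called. The study had selected all 4 for Picker from these arrays, so that their shared direction is no independent evidence. Over all genes with 3 values 22.5% were below 0 on each array. PR-1 (MZ00004486), a secreted protein induced by pathogens, was at −0.85, −5.87 and −14.30, with an SD of 6.79 that nearly equals its mean of −7.01 (adjusted p = 0.0954 from limma). A putative chitinase (MZ00027910), an enzyme that cuts the chitin of fungal walls, was at −1.75, −1.73 and −1.10 (adjusted p = 0.0928 from limma). The probes MZ00037140 and MZ00040560, which share one annotation as a starvation-induced and defence-related protein and may not be independent, were at −1.57, −1.65 and −1.04 and at −1.71, −1.44 and −0.88. Apart from PR-1 these stayed within −1.75 and −0.88 on all arrays. Among the peroxidases, which use hydrogen peroxide in wall building and defence, MZ00026737 was above 0 on each array, at 1.11, 3.80 and 1.78, and the putative peroxidases MZ00026299 (P7X) and MZ00004711 were below 0, at −1.83, −2.39 and −0.21 and at −0.09, −4.03 and −2.63. The adjusted p of the 3 lay between 0.0888 and 0.122 in limma.

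Of 6 probes listed under water stress 5 had 3 values, and 2 were higher and 1, for hsp22, lower on every array. Among all genes with 3 values 24% were above 0 and 22.5% below 0 on each array. The product that resembles a water stress inducible protein (MZ00041500) was at 2.79, 2.91 and 2.99, with an SD of 0.10. It was the steadiest of the listed products and missed the threshold (adjusted p = 0.0538 from limma). The 2 probes for r40g3, a protein of rice linked to abscisic acid, were at 0.46, 3.34 and 2.86 (MZ00042906) and at −0.54, 3.19 and 2.65 (MZ00042908), and a drought-inducible protein (MZ00023411) was at −0.64, 1.60 and 2.66. In these 3 probes replicate 1 was near 0 or below and the other arrays clearly above. The 2 for r40g3 share one annotation and may not be independent. The small heat shock protein hsp22 (MZ00029223), a chaperone whose annotation does not name water stress, was at −4.21, −1.999 and −2.41 (adjusted p = 0.0708 from limma). ASR2 (MZ00041306), of a family induced by abscisic acid, stress and ripening, had 4.44 and 1.503 on replicates 1 and 3 and no value on replicate 2.

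All 3 proteases with complete values were higher on every array. Among all genes with 3 values 24% were above 0 on each array, and the study had selected the protease probes for PR39B29 from the same series. The aspartic proteinase (MZ00043603) was at 2.19, 3.02 and 2.22 (adjusted p = 0.0683 from limma). The legumain-like protease (MZ00041333) and the C13 endopeptidase (MZ00041334), vacuolar cysteine proteases of one family, were at 0.94, 2.35 and 2.13 and at 1.19, 1.99 and 2.06, and whether their probes share sequence was not tested. A putative metacaspase (MZ00032919), a cysteine peptidase linked to cell death in plants, had 1.68 and 2.62 on replicates 1 and 3. None of the 4 was called.

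Among enzymes of metabolism phosphoenolpyruvate carboxykinase (MZ00013532), which feeds gluconeogenesis, was the closest to the threshold, at 2.83, 3.64 and 2.96 (mean 3.15 ± 0.44, SD, n = 3, adjusted p = 0.0523 from limma). Cinnamoyl CoA reductase (MZ00015899), which leads towards lignin, was at 0.13, 1.41 and 1.71. Farnesyl pyrophosphate synthetase (MZ00014008), which makes a precursor of sterols, was at 0.32, −4.37 and −3.01. The last of these was the only enzyme with a mean below 0 (−2.35, adjusted p = 0.12 from limma). The O-methyltransferase ZRP4 (MZ00017851) rested on replicate 1, at 3.95 beside −0.58 and 0.36, and arogenate dehydrogenase (MZ00029584), of tyrosine synthesis, was at −0.65, 1.23 and 1.61.

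Of the membrane proteins NIP2-1 (MZ00016581), a channel of the aquaporin family, was at 2.67, 2.66 and 2.25, with an SD of 0.24 (adjusted p = 0.0683 from limma). MtN21 (MZ00029892), of a family of transporters, was at −1.13, −2.98 and −2.62 (adjusted p = 0.0803 from limma). SYP111 (MZ00019060), a syntaxin of cell division in Arabidopsis, stayed between −0.26 and 0.31. The urea transporter DUR3 (MZ00023132) had 0.63 and −0.02 on replicates 1 and 2. Channel and transporter thus lay on opposite sides of 0 on every array, and SYP111 close to it.

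Of the products listed under RNA and nucleus the transcription factor NAC1 (MZ00022590) was at 2.48, 1.84 and 2.03 (mean 2.12 ± 0.33, SD, n = 3, adjusted p = 0.0709 from limma). The RNA binding protein (MZ00003507) was at −0.70, 0.16 and 0.11, and a putative small nuclear ribonucleoprotein (MZ00014087) at 0.12, −0.20 and −0.46, both with an adjusted p over the threshold (0.83 and 0.775 from limma). On the linking arrays of Fergus cold over Picker control the RNA binding protein was at 3.65, 5.62 and 5.38. The putative 40S ribosomal protein (MZ00017067), of the cytosolic ribosome, also lay within 1 of 0 on the Picker arrays, at −0.14, −0.53 and −0.79, and far above 0 on those linking arrays, at 3.81, 4.93 and 14.71. Those ratios set RNA of one variety against RNA of the other.

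Products of unknown function included several of the larger means. MZ00022876 was at 3.96, 3.31 and 2.00 (mean 3.09 ± 1.00, SD, n = 3, adjusted p = 0.0683 from limma) and MZ00041708 at 2.26, 4.73 and 2.47 (mean 3.15 ± 1.37, SD, n = 3, adjusted p = 0.0708 from limma). PGPD14 (MZ00031569), a protein named from pollen germination in another plant, was at 1.79, 3.90 and 3.72 (adjusted p = 0.0683 from limma). All 3 were above 1 on each array. Of the 12 listed as unknown, all selected for Picker by the study, 2 were above and 7 below 0 on every array. The lowest mean among them was −2.77, that of MZ00012575, at −3.78, −3.25 and −1.29.

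**Figure D5:**
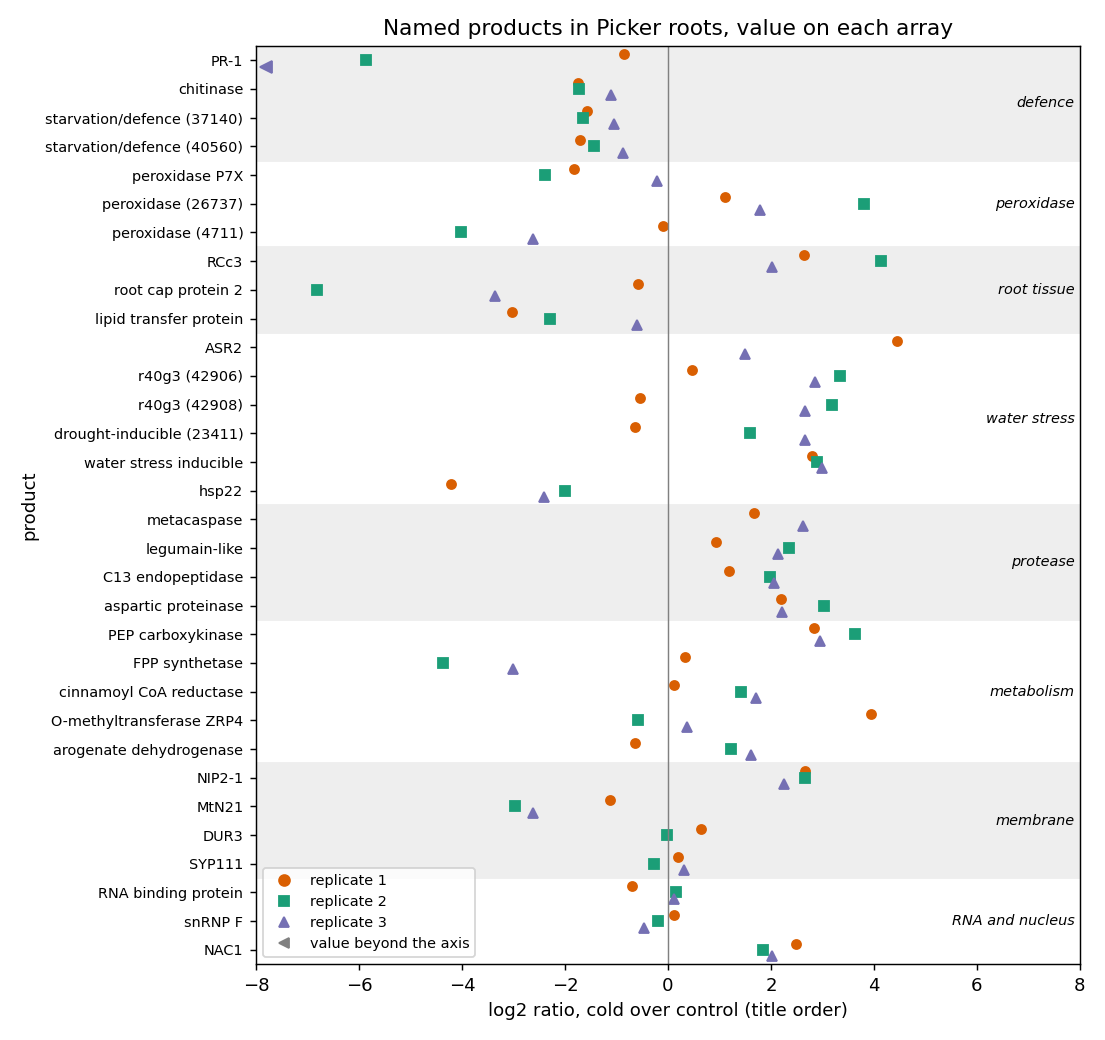
Log2 ratio of cold over control on each Picker array (symbols) for 32 listed probes (rows), grouped by role in alternate shading. The triangle at the left edge is PR-1 on replicate 3, at −14.30. The defence products lie left of 0 and the proteases right of it on every array that measured them. In the water stress, metabolism and RNA and nucleus groups products lie on both sides. The product of the water stress group that lies left of 0 on every array is hsp22, annotated as a heat shock protein. The study had selected the defence probes for Picker from these arrays and the proteases for PR39B29 from the same series.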

How the data were processed

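The slides were scanned with a GenePix scanner. The authors corrected background by the minimum method, which lifts intensities that are not positive, applied print-tip loess within arrays and scaling between arrays in CARMAweb, which runs limma, and left out bad spots (no versions given in the sources used here). The deposited values are M-values, the log2 ratio of the 2 channels of each of 46128 spots, which were used here. Spots were named by block, row and column through a deposited table of other columns (position, probe ID and name). Its 96 per-slide columns carry slide names that no sample label holds and were not used, so no filter on dim spots was run.

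Here 43536 gene spots were averaged to 43393 genes. From the 42364 genes with 2 or more values the variance filter kept 16945. Tests used R 4.3.3 with limma 3.58.1 and the data.table package (version 1.17.8), with Benjamini and Hochberg adjustment over all genes tested. The 3 Picker arrays were tested on their own; contrasts between varieties used one fit of the 12 direct arrays, for genes with all values in the varieties compared, and arrays of varieties outside a contrast may miss values. The code was tested on simulated data. Probe names matched a symbol of the reference table (assembly Zm-B73-REFERENCE-NAM-5.0) for 101 probes, and the table also gave the order of plastid genes and which of them have a mitochondrial copy.

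Named are the genes called in Picker, 52 listed probes and probes with plastid gene names, of which some are not reported here and were left out of the plastid counts; genes outside this rule were chosen after their values were seen. The members and lists were chosen with earlier results of these data known. Alternatives were other variance filters, missing values, centring and scaling, a shared fit with or without the replicate number, robust moderation, loop fits of the 24 arrays, another adjustment, and leaving out each replicate.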

Additional observations from a re-analysis of the deposited data

Results flagged for a closer look

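The plastid gene rps7 (MZ00034882), for a protein of the small ribosomal subunit that also has a mitochondrial copy, was below 0 on all 3 Picker arrays and above 0 on all 3 direct arrays of PR39B29 and of Fergus. In Codisco rps7 lay on both sides of 0, at −0.07, 1.05 and 1.27. The mean in Picker minus that in PR39B29 was −0.97 and minus that in Fergus −1.46. The variance filter had not kept the gene, so that this difference was not tested in the main fits. In the fit without the filter the differences had a standard error of 0.43 each and adjusted p-values of 0.46 and 1 from limma.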

How the results depend on the processing

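The 13 genes called in Picker kept their direction in all 15 alternatives. Each had one sign on all 3 Picker arrays, so only the loop fits, which add other arrays, could have turned a direction. For MZ00005403, MZ00044470 and MZ00044438 the loop fits returned the mean of the Picker arrays unchanged. The kept direction is therefore little evidence of stability. The count was 0 without the variance filter, 0 with a value on 2 of 3 arrays enough, 0 with p-values of the 4 varieties adjusted as one family (lowest 0.0763 from limma), and 0 in loop fits of the 24 arrays without and with a dye term (smallest adjusted p 0.0945 and 0.0854 from limma). Both loop fits included the linking array that nearly equals the direct array of PR39B29 replicate 2. The count was 86 with arrays centred and scaled, 116 with robust moderation and 21 in one fit of the 12 direct arrays, which shared 5 of the 13. With the replicate block in that fit it was 67, of which 10 were shared. The labels do not tie a number to a shared experiment. Deviations of Picker arrays correlated with those of the same number in the other varieties at 0.33 to 0.49 for replicate 1, −0.23 to 0.44 for replicate 2 and −0.06 to 0.31 for replicate 3, and 6 of 12 direct arrays correlated best with their own number, so no pairing was assumed. No contrast between varieties gained a call with the block. Leaving out one replicate gave counts from 0 to 1514. Filters over the 12 direct or the 21 other arrays gave 16 and 18, and centring 13. Without the variance filter 8308 of 17854 genes had one sign on all 3 arrays. Among the contrasts, Picker minus PR39B29 had 2 calls with arrays centred and scaled, and all others stayed at 0 in every alternative tried. Of the named genes, the putative 40S ribosomal protein (MZ00017067) moved from −0.49 to 0.17 and 0.34 in the loop fits without and with a dye term. The spread of a gene over 3 arrays, missing values and the unknown signal over background limit all of these counts; the cause of the changes was not tested.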
